A study of Mus musculus with 3 samples.

Results

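The cells described here are keratinocytes of the upper hair follicle in mouse skin wounds, picked by 2 genes that mark this compartment. A cell was taken as an upper follicle cell when its Krt79 and Gata6 counts came to at least 3 unique molecular identifiers (UMIs, counted molecules). It also had at most 1 UMI of the sebocyte genes Far2 and Awat2, at most 1 of the outer root sheath genes Tbx1 and Krt75, and at most 2 of the hair genes Krt35 and Krt71. Cells with under 250 genes or over 10% mitochondrial UMIs were dropped. This left 1581 upper follicle cells among 26953 kept cells, 338 in the untreated library, 583 in the GelMA library and 660 in the AN-GelMA library.

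The 3 libraries come from splinted excisional wounds, 5 mm across and through the whole skin, on the back of C57BL/6J females at postnatal day 50. The untreated wound, called sham in its title, received no gel. The GelMA wound received 20 µL of gelatin methacryloyl, a hydrogel set with 1 min of ultraviolet light, and the AN-GelMA wound the same gel carrying apoptotic neutrophils. All wounds were taken at 5 days with a 2 mm margin and profiled with a probe-based single-cell assay on fixed cells. There was 1 library per group, and the number of mice behind it is not in the labels, so treatment, animal and piece of skin cannot be told apart and no test between libraries exists. The files of the AN-GelMA library carry the word heat, which the labels do not explain.

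The upper follicle comprises the funnel that opens at the skin surface, the junctional zone below it and the duct through which the sebaceous gland empties. Its inner, suprabasal cells make the keratin Krt79, which lines the channel of the hair canal. Gata6 is a transcription factor of the sebaceous duct, and Lrig1 and Plet1 mark the stem and progenitor cells of the junctional zone. After wounding, progenitors of this compartment are known to leave the follicle and to take part in covering the wound, and cells of the duct can form either epidermis or gland.

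Krt79 carried most of the choice. It stood at 3986 CPM (the usual scaled count, a gene's UMIs relative to all UMIs summed over a library's upper follicle cells) in the untreated, 4947 in the GelMA and 3791 in the AN-GelMA library. Gata6 stood at 175, 160 and 167 CPM, and 26.6%, 25.9% and 23.5% of the cells had a UMI of it. Both genes together gave 129, 123 and 102 CPM in all other kept cells, against 4160, 5106 and 3958 CPM in the upper follicle cells. The median cell held 7, 10 and 6 UMIs of the pair. Exactly 3 UMIs were found in 54, 54 and 114 cells just inside the limit, while 84, 89 and 167 cells met the other limits with 2 UMIs and stayed outside.

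Cells of another type also passed the limit on the 2 genes, and whether through free RNA or doublets was not tested. Fibroblast-type cells, with at least 10 collagen UMIs, should lack Krt79, and 9 of 1110 (0.811%) in the untreated, 12 of 613 (1.96%) in the GelMA and 22 of 1934 (1.14%) in the AN-GelMA library had at least 3 UMIs of the pair. Of these, 8, 7 and 19 met the other limits too and are counted among the upper follicle cells. The median depth of all fibroblast-type cells was 1133, 1171 and 1189 UMIs, against 1707, 2110 and 1606 UMIs in the upper follicle cells. Of the upper follicle cells, 71, 153 and 122 (21.0%, 26.2% and 18.5%) held at least 3 UMIs of other cell types' markers. Of these markers, 4 are of pericytes and smooth muscle. Those 4 gave 235, 283 and 216 CPM in the upper follicle cells and 240, 243 and 184 CPM in all other cells. How many cells were counted through these 4 genes was not tested. Summed over 6 fibroblast markers, the upper follicle cells gave 684, 296 and 834 CPM, below the 5458, 1260 and 6314 CPM of all other cells, and 7 macrophage markers gave 68.8, 67.3 and 104 CPM. Markers of hair-forming cells, from the matrix to the shaft, gave 90.9 CPM in the untreated, 1124 in the GelMA and 58.7 in the AN-GelMA library, with 7, 0 and 9 of 17 at 0. In all other cells the same markers gave 751, 11855 and 89.0 CPM, so the GelMA library is the one rich in RNA of hair-forming cells. Between 94 and 135 cell barcodes recurred in each pair of libraries, among them 16, 5 and 16 upper follicle cells.

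Upper follicle cells made up 5.6% of kept cells in the untreated (95% exact binomial interval 5.03 to 6.21), 5.16% in the GelMA (4.76 to 5.58) and 6.87% in the AN-GelMA library (6.37 to 7.39). Here and below, such intervals cover counting error only. Among cells that met the limits on Krt35 and Krt71 and on Tbx1 and Krt75 the shares were 5.94%, 6.95% and 7.05%, so the order of the untreated and GelMA libraries turned. Among the 4 keratinocyte populations compared below the shares were 28.3%, 28.1% and 31.2%. With every cell thinned to 1000 UMIs the shares were 6.38%, 5.90% and 7.13%, leaving out 2417, 3060 and 3920 shallower cells.

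Set against other keratinocytes, the upper follicle cells held more of single genes from many groups, such as the defensin Defb6, the protease inhibitor Cst6, the keratin Krt17 and the ligand Wnt11, and less of Fabp5, Hk2 and Hif1a. Most members of the antimicrobial and protease control lists were not among these genes: 2 of 19 and 2 of 27 were higher than in all 3 comparators. Counts were summed per library for the upper follicle cells and for 3 comparators without Krt79 and Gata6 UMIs or with sebocyte genes. These were basal-type epidermis (1306 cells, Krt5 and Krt14 at or above Krt1 and Krt10), suprabasal-type epidermis (2147 cells, Krt1 and Krt10 higher) and sebocyte-type cells (351 cells with at least 3 UMIs of Far2 and Awat2). Cells of both epidermal comparators also needed at least 10 UMIs of these keratins together and a UMI of Dsp or Perp. The upper follicle cells had no such minimum, and 91, 82 and 156 of them held no UMI of these keratins. The populations were thus chosen in unlike ways. The 12 sums were tested with edgeR's quasi-likelihood test with the library as a block, which compares populations within these 3 libraries. A gene was called at an adjusted p under 0.05 and a change of 1.5-fold or more, and the 14 genes used to pick cells were left out. Of 10353 genes, 198 (1.91%) were higher and 37 (0.357%) lower than in all 3 comparators. By comparator, 1175 (11.3%) rose and 1390 (13.4%) fell against basal-type cells, 688 (6.65%) and 720 (6.95%) against suprabasal-type cells, and 2084 (20.1%) and 1784 (17.2%) against sebocyte-type cells. Genes whose level follows Krt79 from cell to cell were bound to differ, so the calls describe the cells that the choice yields.

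The 15 genes with the widest margin over their nearest comparator were Sprr4, Defb6, Igfl3, Cst6, Gsdma3, Penk, Lbh, Krt17, Adgrl3, Pdlim4, Ypel4, Wnt11, Cyp27a1, Dpysl5 and Sulf2, each highest in upper follicle cells in 3 of 3 libraries. The stretches upstream of 2 of them, Igfl3 and Defb6, are shown because they hold the core letters bound by GATA factors, the family of the marker Gata6. RefSeq gives the 250 bases before the start of Igfl3 at chr7:18176244-18176493 (plus strand) and those of Defb6 at chr8:19225228-19225477 (plus strand), on build GRCm38.p6, with AGATAA in capitals.
Igfl3: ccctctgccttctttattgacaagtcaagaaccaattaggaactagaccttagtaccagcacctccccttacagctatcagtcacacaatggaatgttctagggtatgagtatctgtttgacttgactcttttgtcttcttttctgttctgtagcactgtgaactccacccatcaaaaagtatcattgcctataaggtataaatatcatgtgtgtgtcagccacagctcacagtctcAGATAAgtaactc
Defb6: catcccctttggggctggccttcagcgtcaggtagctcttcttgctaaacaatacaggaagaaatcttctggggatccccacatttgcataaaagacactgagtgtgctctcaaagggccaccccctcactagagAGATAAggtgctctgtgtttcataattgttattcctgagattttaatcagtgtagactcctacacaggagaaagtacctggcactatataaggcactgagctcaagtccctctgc
Of the 15 genes, 12 had an entry and 2 held AGATAA or its reverse complement in these 250 bases. Of the 32851 promoters of the same length that were searched 9.99% did, and 11.4% of their 27025 genes had such a promoter. Not every chromosome was searched. The stretch upstream of Krt79 itself held none. A match of letters is a description and not a binding site.

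Defb6, a beta-defensin that acts against microbes, stood at 714, 1293 and 624 CPM in the upper follicle cells of the untreated, GelMA and AN-GelMA libraries. It reached 24.2 ± 18.3 (SD, n = 3 libraries) in basal-type, 29.3 ± 6.28 in suprabasal-type and 17.9 ± 14.4 CPM in sebocyte-type cells. The log2 differences were 5.27 ± 0.27 (SE), 4.82 ± 0.24 and 5.48 ± 0.35, with an edgeR adjusted p of 3.3e-08 against basal-type cells, and the highest comparator value in any library was 44.0 CPM. Cst6, the protease inhibitor cystatin M/E, stood at 1677, 4578 and 1322 CPM, against 276 ± 302, 137 ± 61.7 and 83.9 ± 57.6 CPM in the comparators. Its log2 differences were 3.51 ± 0.25, 4.0 ± 0.26 and 4.76 ± 0.31. Sprr4, a small proline-rich protein of the cornified envelope, was lower in level at 86.7, 393 and 86.2 CPM but nearly absent elsewhere, with means of 6.51 ± 5.66, 1.45 ± 1.01 and 1.03 ± 1.78 CPM. Igfl3, an insulin growth factor-like secreted protein, stood at 55.1, 158 and 105 CPM, 4.05 ± 0.37 to 5.41 ± 0.64 log2 units above the comparators. The gasdermin Gsdma3, of a family of pore-forming proteins, stood at 195, 381 and 123 CPM.

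Genes of appendages, peptides and sterols followed. Krt17, a keratin of skin appendages, stood at 1689, 3052 and 1675 CPM, against 413 ± 259, 273 ± 87.7 and 57.9 ± 60.1 CPM, and its log2 differences were 2.58 ± 0.20, 2.87 ± 0.20 and 5.12 ± 0.27. Lbh, a transcriptional cofactor, varied little between libraries at 281, 321 and 272 CPM and exceeded basal-type cells by 2.60 ± 0.20. Penk, the precursor of enkephalin peptides, stood at 201, 94.5 and 117 CPM against 3.58 ± 2.52 CPM in basal-type cells. Cyp27a1, a mitochondrial sterol hydroxylase, stood at 384, 168 and 378 CPM, with the GelMA library lowest, and exceeded basal-type cells by 2.82 ± 0.20. The ligand Wnt11 stood at 106, 159 and 110 CPM, 2.30 ± 0.28 above basal-type cells.

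Of the 12 upper follicle markers listed beside Krt79 and Gata6, 7 were higher than in all 3 comparators. These were Lrig1, Plet1, Cst6, Krt17, Defb6, Atp6v1c2 and Klk10. Lrig1, which restrains signalling by EGF receptors, stood at 446, 460 and 447 CPM, nearly the same in each library. It exceeded basal-type cells by 1.05 ± 0.12 and suprabasal-type cells by 2.53 ± 0.13, with edgeR adjusted p-values of 1.5e-05 and 1.7e-08. Plet1, a surface protein of the junctional zone, stood at 295, 885 and 230 CPM and exceeded basal-type cells by 1.60 ± 0.21 and suprabasal-type cells by 4.56 ± 0.25. Against suprabasal-type cells the transcription factor Klf5 went the other way, at 195 to 203 CPM against 400 ± 90.0 CPM (log2 difference -1.08 ± 0.14).

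Basal layer genes stood near the suprabasal-type level, and suprabasal genes between the levels of both epidermal comparators. Those comparators were divided by Krt5 and Krt14 against Krt1 and Krt10, and the upper follicle cells were not, so a mixed population would lie between them by choice. All 13 basal layer and basement membrane genes fell against basal-type cells, with a median log2 difference of -2.52 where that of all genes was -0.01. Against suprabasal-type cells 2 of them rose and 1 fell, with a median of -0.04. The hemidesmosomal collagen Col17a1 stood at 324, 82.3 and 249 CPM against 1741 ± 112 CPM in basal-type cells. Of 13 suprabasal genes, 10 rose against basal-type cells and 8 fell against suprabasal-type cells. Krtdap, a secreted protein of differentiating keratinocytes, stood at 982, 1040 and 1071 CPM, between 544 ± 61.1 and 1811 ± 258 CPM. Of 31 cell cycle genes, 25 fell against basal-type cells, while 1 rose and 0 fell against suprabasal-type cells. Mki67, the proliferation marker, had 13.8, 8.59 and 6.86 CPM against 63.5 ± 19.8 CPM in basal-type cells.

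Many barrier genes stood above basal-type and below suprabasal-type cells, with exceptions. Of 19 measured genes of barrier lipid and ceramide synthesis, 13 rose against basal-type cells, and 2 rose and 11 fell against suprabasal-type cells. Alox12e, an epidermal lipoxygenase, was higher than in all comparators, at 2318, 1310 and 1825 CPM. It exceeded suprabasal-type cells (778 ± 174 CPM) by 1.13 ± 0.26 and basal-type cells by 4.07 ± 0.30, while Alox12b, the lipoxygenase of the permeability barrier, fell by 1.43 ± 0.23 on the log2 scale against suprabasal-type cells. Of 24 cornified envelope genes, 10 rose and 6 fell against basal-type cells, and 2 rose and 10 fell against suprabasal-type cells. The 2 that rose against all comparators were Sprr4 and Sprr1a, the latter at 383, 1054 and 364 CPM.

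Sebaceous lipid genes were far below sebocyte-type cells and went both ways against the epidermal comparators. Of 26, 23 fell against sebocyte-type cells, with a median log2 difference of -3.98, which the choice of both populations by Far2 and Awat2 UMIs made likely. Against basal-type cells 8 rose and 1 fell, with a median of 0.43, and against suprabasal-type cells 6 rose and 3 fell, with a median of -0.06. Scd1, the desaturase of sebum lipids, had 71.6, 93.8 and 49.6 CPM against 6091 ± 1200 CPM in sebocyte-type cells. Fabp5, the fatty acid carrier of epidermis and gland, was among the genes lower than in all comparators, at 138, 359 and 239 CPM against 679 ± 253, 834 ± 89.6 and 1771 ± 68.0 CPM. Without the untreated or without the AN-GelMA library its difference from basal-type cells had an edgeR adjusted p of 0.106 and 0.102.

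Signalling genes went both ways, and many metabolic genes fell against basal-type cells. Of 24 measured Wnt, BMP and hedgehog genes, 4 rose and 10 fell against basal-type cells, with a median log2 difference of -0.70, and 7 rose and 4 fell against suprabasal-type cells. Among them Wnt11, the Wnt feedback gene Axin2 and the ligand Bmp7 were higher than in all 3 comparators, with Bmp7 at 318, 298 and 325 CPM against 157 ± 21.8 CPM in basal-type cells. Nfatc1, a transcription factor of the bulge stem cells, stood at 149, 115 and 128 CPM and exceeded basal-type cells by 1.31 ± 0.19. The adhesion molecule Epcam stood at 396, 521 and 393 CPM, 2.30 ± 0.16 above basal-type cells. Of 30 glycolysis and hypoxia genes, 20 fell against basal-type cells, and the hexokinase Hk2 and the hypoxia factor Hif1a fell against all comparators. Hk2 had 149, 187 and 139 CPM against 400 ± 102, 327 ± 30.6 and 279 ± 14.7 CPM, and Hif1a 67.5, 79.4 and 67.1 CPM against 242 ± 45.2 CPM in basal-type cells. Against suprabasal-type cells Hif1a had an edgeR adjusted p of 0.0024, which became 0.0603 without the untreated and 0.0731 without the AN-GelMA library. Of 31 injury-induced keratinocyte genes, 1 rose (Krt17) and 18 fell against basal-type cells.

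**Figure D1:**
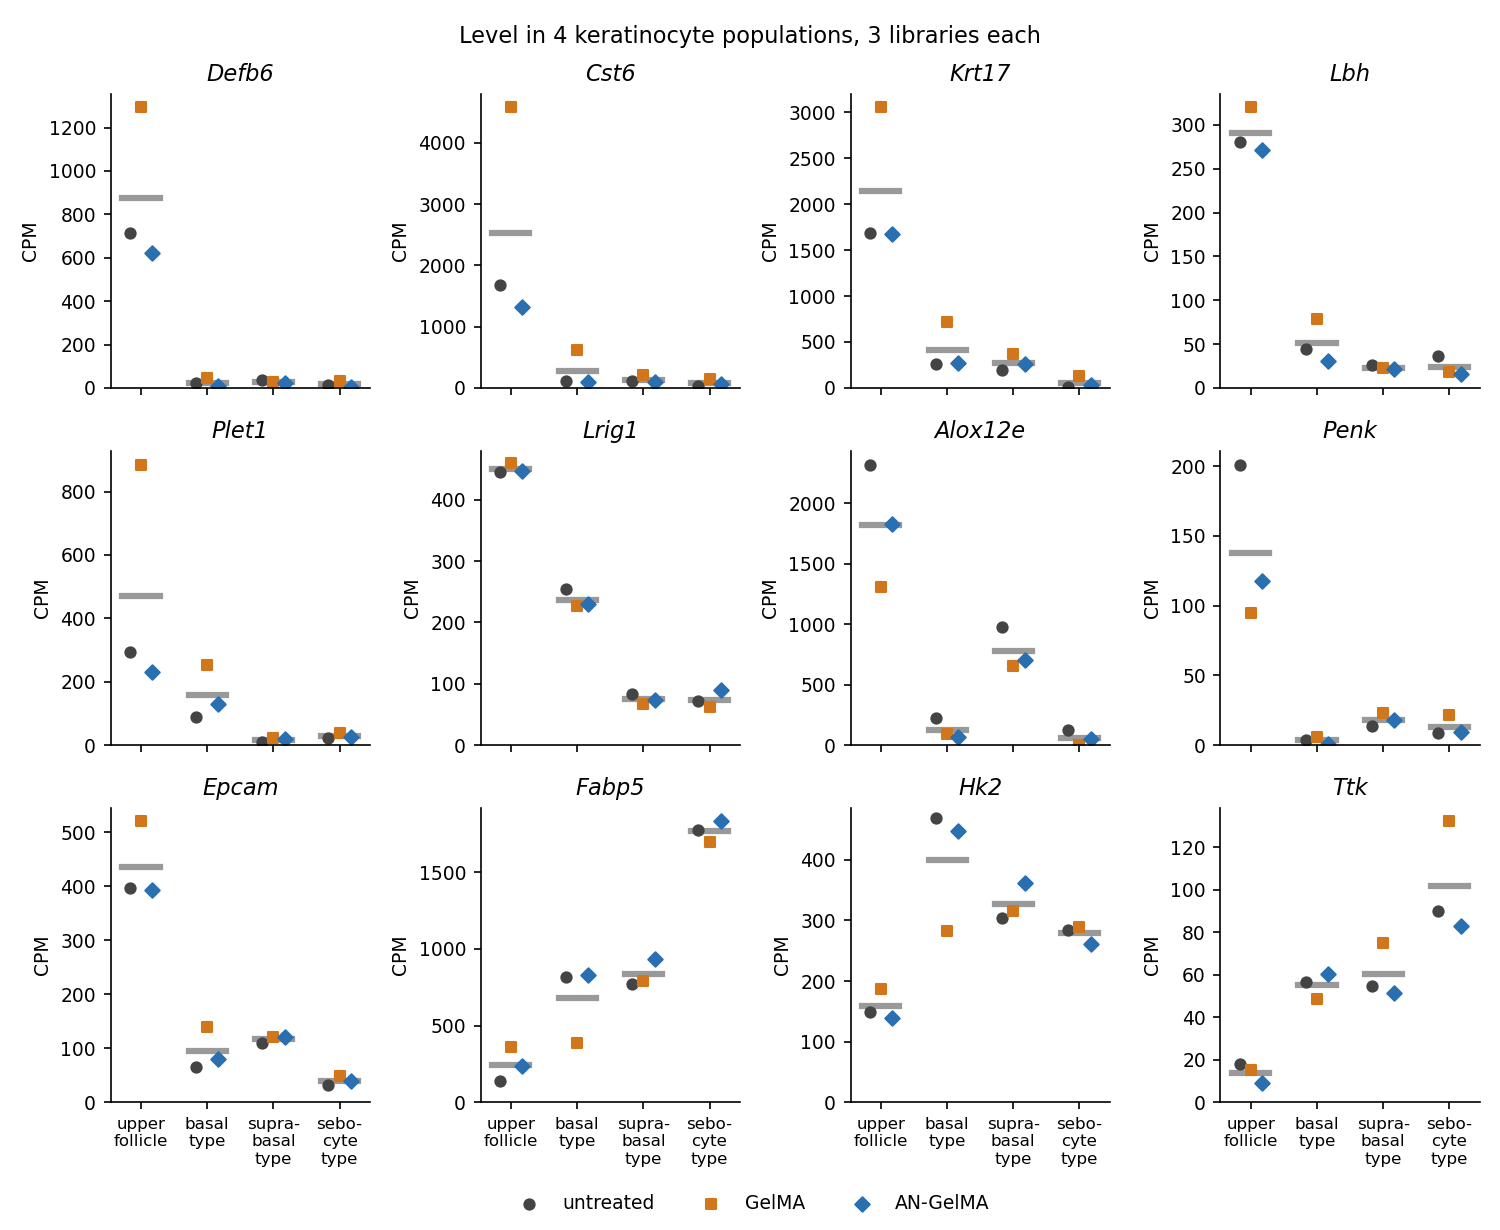
Level in CPM (vertical axes, starting at 0) of 12 genes in the upper follicle cells and 3 comparator populations, 1 point per library and a grey bar at the mean of 3 libraries. Defb6, Cst6, Krt17, Lbh and Penk are highest in the upper follicle cells of each library, and Hk2 and Ttk are lowest there.

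Upper follicle cells were not uniform. Those led by Krt1 and Krt10, keratins of differentiating layers, over Krt5 and Krt14, keratins of the basal layer, were 109 of 338 (32.2%, 27.3 to 37.5) in the untreated, 135 of 583 (23.2%, 19.8 to 26.8) in the GelMA and 251 of 660 (38.0%, 34.3 to 41.9) in the AN-GelMA library. This divides a range and not types: 132, 197 and 272 cells lay within 1 UMI of the line, and 91, 82 and 156 cells had no UMI of the 4 keratins. Of 10288 genes, 244 were at least 1.5-fold higher and 610 at least 1.5-fold lower in the led cells in every library. With the cells divided by their own counts this is a description.

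Led cells held less Lrig1, Igfl3 and Lbh and more Hal and Flg, genes picked here as examples. Lrig1 stood at 220, 199 and 216 CPM in led cells and at 589, 571 and 609 CPM in the others. Of the 2 genes that chose the cells, Gata6 stood at 96.0, 96.1 and 124 CPM in led cells and at 225, 187 and 197 CPM in the others, and Krt79 at 3778, 4347 and 3492 CPM against 4117, 5201 and 4000 CPM. Since the choice used their sum, these levels are given as a description of it. Igfl3 was at 21.3, 28.8 and 37.0 CPM against 76.4, 213 and 153 CPM. Lbh followed the same order, at 160, 72.1 and 113 CPM against 357, 426 and 383 CPM. Hal, the histidine-degrading enzyme of the stratum corneum, went the other way, at 807, 795 and 714 CPM in led cells against 335, 176 and 280 CPM in the others. Filaggrin (Flg) stood at 5925, 10861 and 3945 CPM against 2094, 1632 and 2203 CPM. In the GelMA library 35.8% of upper follicle cells and 22.1% of fibroblast-type cells held at least 2 UMIs of Flg and Lor. The part of free RNA in the Flg levels was not tested.

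Smaller sets of cells were described by counting UMIs of a few genes that were chosen after their values were seen. Cells with at least 2 UMIs of Penk and Igfl3 were 8.28%, 8.23% and 8.64% of the upper follicle cells, against 0.454%, 1.98% and 0.418% of fibroblast-type cells. Penk stood at 201, 94.5 and 117 CPM and Igfl3 at 55.1, 158 and 105 CPM over all upper follicle cells. The near-equal shares thus sum genes with opposite orders and do not show a constant set of cells. Lrig1 in them stood at 825, 704 and 645 CPM. Cells with at least 2 UMIs of Sprr4, Gsdma2 and Klk10 were 19 (5.62%, 3.42 to 8.64) in the untreated, 118 (20.2%, 17.1 to 23.7) in the GelMA and 33 (5.00%, 3.47 to 6.95) in the AN-GelMA library. Thinned to 1000 UMIs, these shares were 4.03%, 13.6% and 3.87%, and in fibroblast-type cells at most 0.660%. Within these cells Cst6 reached 8463, 11744 and 5108 CPM and Plet1 1424, 2201 and 1514 CPM. Cells with at least 2 UMIs of the basal genes Col17a1 and Itgb4 were 15.1%, 6.00% and 12.9%, but 5.78% of fibroblast-type cells of the GelMA library passed too, so the GelMA share is at the background.

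**Figure D2:**
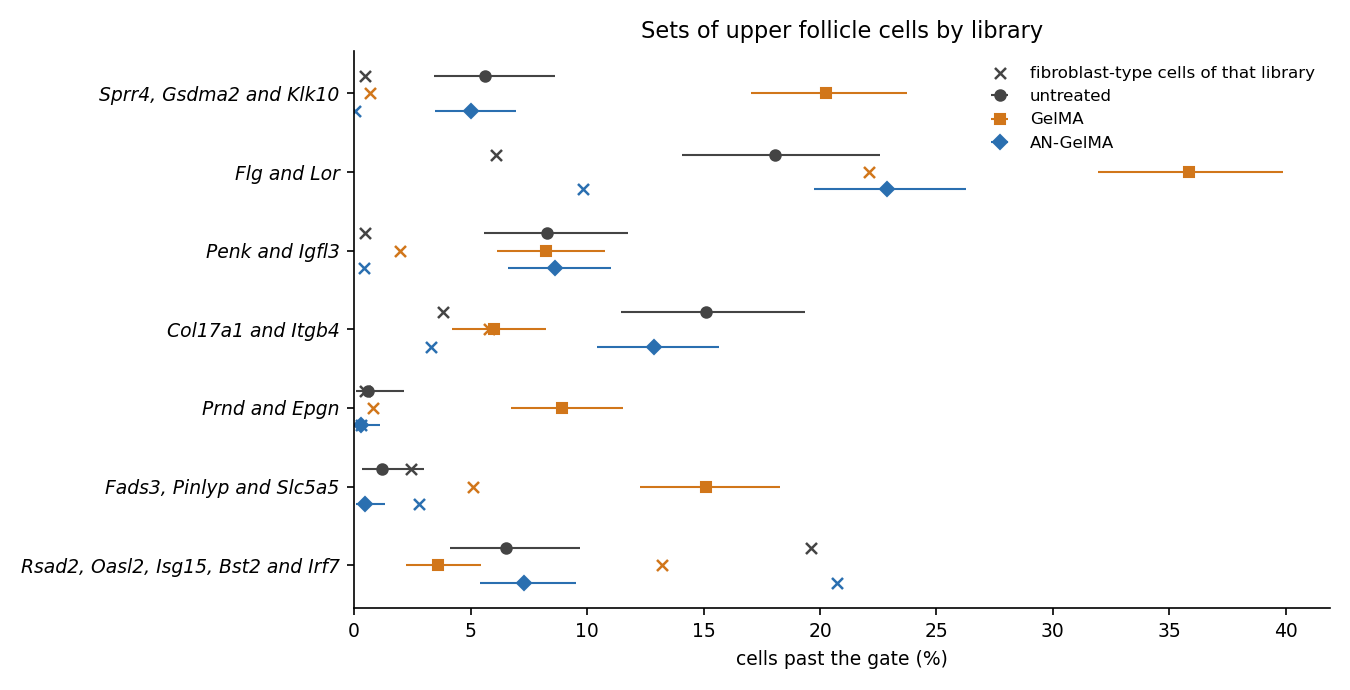
Share of upper follicle cells (percent, horizontal axis) with at least 2 UMIs of the named genes, or 3 for the interferon-induced set led by Rsad2, in each library, with 95% exact binomial bars for counting error. Crosses give the share of fibroblast-type cells of the same library, and the Sprr4, Prnd and Fads3 sets are most frequent in GelMA.

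A pair of sets was found mostly in the GelMA library. Cells with at least 2 UMIs of Prnd (a prion-like protein) and Epgn (the EGF receptor ligand epigen) numbered 2, 52 and 2. Cells with at least 2 UMIs of Fads3 (a fatty acid desaturase), Pinlyp (a phospholipase inhibitor) and Slc5a5 (the iodide transporter) numbered 4, 88 and 3. They overlapped in 15 GelMA cells, so that 6 (1.78%), 125 (21.4%, 18.2 to 25) and 5 (0.758%) cells held either. Other kept cells of the GelMA library passed the Fads3 set in 8.62% and the Prnd set in 2.30%, and its fibroblast-type cells in 5.12% and 0.825%. The 125 GelMA cells had 9819 CPM of Cst6, 2190 of Plet1, 2695 of Krt6a, 827 of the gap junction gene Gja1 and 385 of Krt1. The other GelMA upper follicle cells had 3027, 499, 684, 175 and 2294 CPM of these genes. The sets differed in the chemokine Cxcl12, at 2065 CPM in the 52 cells with Prnd and Epgn but 246 CPM in the 88 cells of the Fads3 set, near the 281 CPM of the other GelMA upper follicle cells. Trichohyalin (Tchh), a protein of the inner root sheath, stood at 451 CPM in the 125 cells and 501 CPM in the others, against 53.7 CPM in untreated upper follicle cells.

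The GelMA library differed from the untreated one in the upper follicle cells by a higher level of many antimicrobial, injury-induced, cornified envelope, EGF family and protease control genes. Basement membrane genes were lower, but with each cell thinned to 1000 UMIs their median log2 ratio was 0.02. This comparison sets the gel and its 1 min of ultraviolet light against a wound without gel, with 1 library each. Of 9486 genes with at least 20 UMIs over both libraries, 1341 (14.1%) were at least 1.5-fold higher and 1328 (14.0%) at least 1.5-fold lower, with a median log2 ratio of -0.07. Each library is 1 sample, so the ratios below carry counting intervals at 95% and no p-value. Members of each list are to be read against these 14.1% and 14.0%.

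The upper follicle markers themselves differed. Of 12, 6 were higher and 3 lower in GelMA, with a median log2 ratio of 0.68, or 0.30 without the 125 cells above. Plet1 had 295 and 885 CPM in the untreated and GelMA libraries, a log2 ratio of 1.59 (1.38 to 1.80), or 499 CPM in GelMA without those cells. Cst6 had 1677 and 4578 CPM (1.45, 1.36 to 1.54), or 3027 CPM without them. Sox9, a transcription factor of the follicle's outer layers, had 124 and 432 CPM (1.80, 1.48 to 2.14) and kept 380 CPM without them. Defb6 had 714 and 1293 CPM (0.86, 0.71 to 1.00) and was not carried by those cells, at 1466 CPM without them. Lrig1 stood level, at 446 and 460 CPM (0.05, -0.15 to 0.24). Fst, the activin-binding protein follistatin, was lower, at 235 and 68.7 CPM (-1.78, -2.15 to -1.41), but 0.39 higher with cells thinned to 1000 UMIs.

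Cornified envelope genes were higher in 10 of 17 and lower in 0, with a median of 1.04. Sprr1a had 383 and 1054 CPM (1.46, 1.27 to 1.65), Sprr4 86.7 and 393 CPM (2.18, 1.80 to 2.58) and the crosslinking enzyme Tgm1 182 and 404 CPM (1.15, 0.88 to 1.44). Loricrin (Lor), with 79.8 and 231 CPM, and Flg are left aside, because fibroblast-type cells of the GelMA library held more Lor than the upper follicle cells. Of the 10 higher genes, 8 stood at 2 or more times the level in fibroblast-type cells. Among kallikreins, serpins and other protease control genes 14 of 26 were higher and 1 lower. Klk7, the main desquamation protease, had 1410 and 3279 CPM (1.22, 1.12 to 1.32), and Klk6, a trypsin-like kallikrein, 161 and 593 CPM (1.88, 1.60 to 2.17). Cstb, a cytosolic inhibitor of cathepsins, had 46.8 and 338 CPM (2.85, 2.35 to 3.40), and the cathepsin Ctsl 19.3 and 242 CPM (3.65, 2.88 to 4.54). Without the 125 cells Klk7 kept 2630, Klk6 263, Cstb 195 and Ctsl 145 CPM, above the untreated values of all 4.

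Of 14 EGF family ligands and receptors, 8 were higher and 0 lower. Of the 8, 7 are ligands, and the other is Errfi1, an inhibitor of EGF receptors inside the cell, with 62.0 and 120 CPM (log2 ratio 0.95). Epgn had 9.64 and 194 CPM, but 13 CPM without the 125 cells, which were chosen by it. Hbegf, the heparin-binding ligand, had 13.8 and 117 CPM (3.09, 2.18 to 4.18), and 64.9 CPM without them. Areg had 46.8 and 88.0 CPM (0.91, 0.35 to 1.5), and Tgfa 50.9 and 95.2 CPM (0.90, 0.37 to 1.47). The receptor Egfr stood level, at 191 and 201 CPM (0.07, -0.23 to 0.38).

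Of 27 injury-induced keratinocyte genes, 17 were higher and 1 lower, with a median of 0.97. Of the 17, 10 stood at 2 or more times the fibroblast-type level. Krt6a, a keratin induced in wounded and growing epithelium and present in the follicle's companion layer, had 97.7 and 1143 CPM (3.55, 3.20 to 3.91), and 684 CPM without the 125 cells. Gjb2, a connexin, had 28.9 and 288 CPM (3.31, 2.68 to 4.02). Gja1, a connexin of the junction list and not of this one, had 16.5 and 324 CPM (4.29, 3.48 to 5.26), and 175 CPM without the 125 cells. Antimicrobial genes were higher in 9 of 14, and 2 of them, S100a8 and S100a9, were seen in under 3% of cells in each library. Outer root sheath markers gave 34.4, 85.2 and 37.4 CPM in the upper follicle cells of the untreated, GelMA and AN-GelMA libraries and 180, 709 and 114 CPM in all other cells. The part of hair and outer root sheath RNA in the GelMA differences was not tested.

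Basal layer genes were lower in 9 of 13 and higher in 0, with a median of -1.12. Col17a1 had 324 and 82.3 CPM (-1.97, -2.31 to -1.65), the integrin Itgb4 249 and 64.4 CPM (-1.95, -2.33 to -1.58), and the laminin Lama3 198 and 84.5 CPM (-1.23, -1.59 to -0.87). With each cell thinned to 1000 UMIs the median was 0.02 over the 10 members that still passed. Thinning weighted cells equally, but it also left out shallower cells and picked upper follicle cells anew (231 untreated and 486 GelMA cells). Which of these changes moved the median was not tested. Cell cycle genes were lower in 15 of 27 and higher in 4, with a median of -0.65, but 0.44 over the 5 members left with thinned cells. None of these 15 stood at 2 or more times the fibroblast-type level, but whether fibroblast-type cells make cell cycle genes themselves was not tested.

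Transcription factors of follicle and epidermis mostly stood level, with 5 of 24 higher and 1 lower. Beside Sox9, Cebpb, a factor of keratinocyte differentiation and inflammation, had 175 and 438 CPM (1.32, 1.05 to 1.61), Zfp750, a factor of terminal differentiation, 120 and 220 CPM (0.88, 0.53 to 1.24), and Hopx, a homeodomain cofactor, 146 and 256 CPM (0.81, 0.50 to 1.14). Of 12 retinoid genes, 5 were higher and 1 lower. Crabp2, which carries retinoic acid to its receptors, had 112 and 253 CPM (1.18, 0.83 to 1.55). Of 11 Notch genes, 2 were higher and 2 lower, near the share of all genes. Nrarp, a feedback target of Notch, had 165 and 258 CPM (0.64, 0.34 to 0.95), while the ligand Jag2 had 77.1 and 27.2 CPM (-1.5, -2.14 to -0.88), the latter under the 49.2 CPM of fibroblast-type cells in the same GelMA library. The oxidase Duox1 and its maturation factor Duoxa1, which release hydrogen peroxide at the cell surface, had 31.7 and 82.3 CPM (1.38, 0.72 to 2.09) and 67.5 and 155 CPM (1.2, 0.74 to 1.67). Of 22 sebaceous lipid genes, 13 were higher and 1 lower, but only 6 of the 13 stood at 2 or more times the fibroblast-type level. Hmgcs1 and Sqle, enzymes of cholesterol synthesis, had 193 and 362 CPM (0.91, 0.64 to 1.19) and 149 and 273 CPM (0.88, 0.57 to 1.2).

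Among junction genes 11 of 25 were higher and 0 lower, but only 5 of the 11 stood at 2 or more times the fibroblast-type level. The desmosomal cadherin Dsg3 had 88.1 and 266 CPM (1.60, 1.21 to 2.00) and the claudin Cldn4 41.3 and 137 CPM (1.73, 1.17 to 2.34). Desmoplakin (Dsp), which anchors keratins at desmosomes, stood level at 3413 and 3438 CPM (0.01, -0.06 to 0.08). So not every junction gene was higher.

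Among single genes with a clear interval, 10 each way were named by rule. Higher in GelMA were Prnd, Akr1cl, Slc5a5, Epgn, Fads3, Krt6a, Trpm6, Atp12a, Slc6a19 and Car6. All but Prnd were also higher in the other kept cells of GelMA than in those of the untreated library. Prnd had 8.26 and 319 CPM, a 38.6-fold ratio that fell to 8.35 CPM in GelMA without the cells chosen by it. Akr1cl, an aldo-keto reductase-like gene, had 0 and 65.1 CPM, at least 15.8-fold higher with 3 UMIs taken for 0. Atp12a, a proton pump, had 5.51 and 117 CPM. Lower were Aldh3a1, Skint7, Fst, Slc22a4, Cblb, Crim1, Clca3a1, Krt1, Acsl4 and P3h2, and each of them was also lower in the other kept cells of GelMA. Aldh3a1, an aldehyde dehydrogenase, had 90.9 and 20.0 CPM (-2.18, -2.87 to -1.52). Skint7, of a family that selects epidermal T cells, had 461 and 135 CPM (-1.77, -2.03 to -1.51). Cblb, an E3 ubiquitin ligase, had 419 and 140 CPM. Krt1 had 4349 and 1858 CPM (-1.23, -1.30 to -1.15), beside the smaller share of Krt1 and Krt10-led cells in GelMA.

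**Figure D3:**
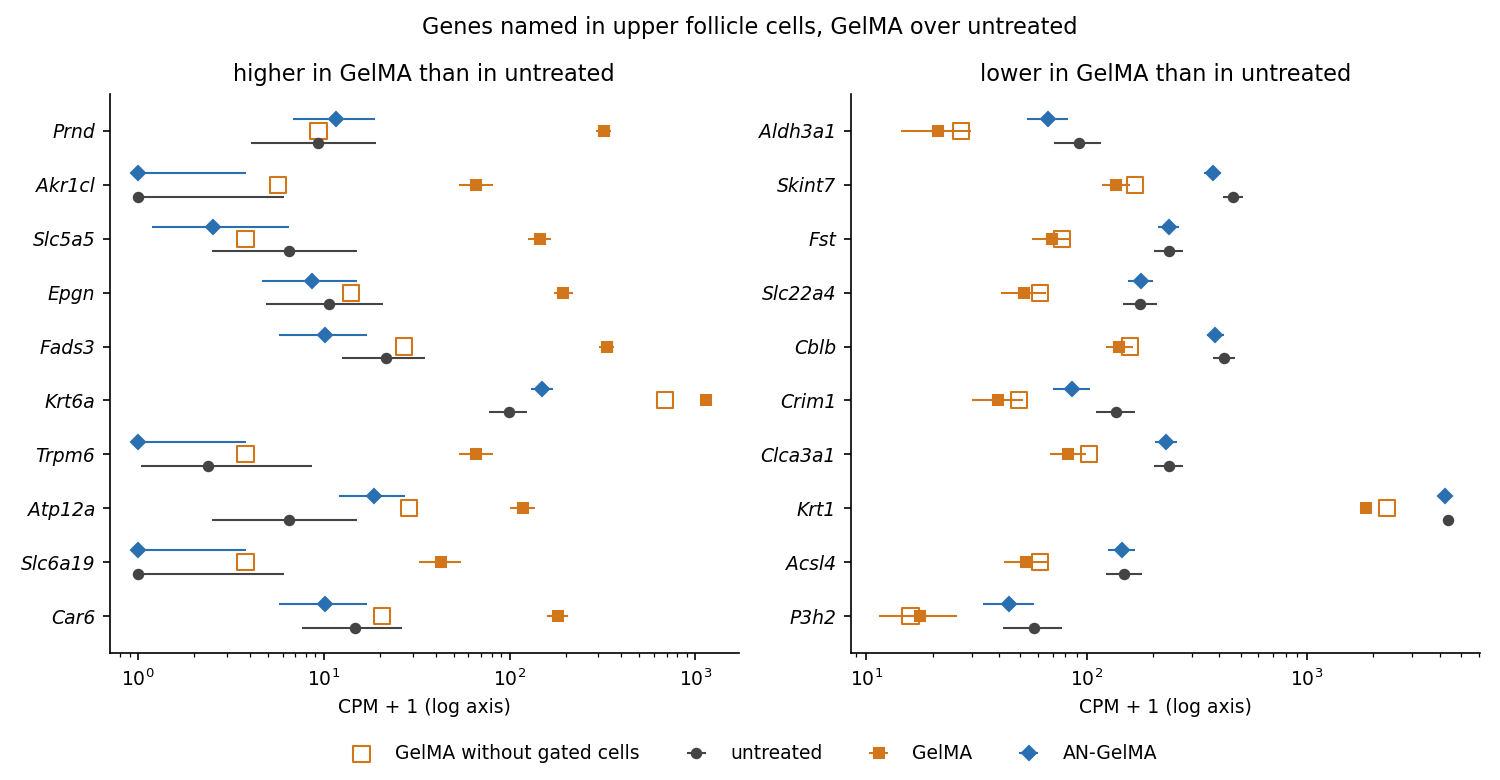
Level plus 1 in CPM (log axis) of the 10 genes named each way for GelMA over untreated, in the upper follicle cells of each library, with 95% counting bars. Open squares show GelMA without the 125 cells with UMIs of Prnd and Epgn or of Fads3, Pinlyp and Slc5a5: Prnd then lies at 8.35 CPM, while Krt6a stays at 684 CPM.

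Adding apoptotic neutrophils to the gel is addressed by AN-GelMA over GelMA. Of 9845 genes, 1327 (13.5%) were at least 1.5-fold higher and 1488 (15.1%) lower in AN-GelMA, 28.6% in either direction, with a median log2 ratio of 0.04. It shares the GelMA library with the comparison above, so opposite directions in the pair are bound to recur and are not independent. Upper follicle markers were higher in 2 and lower in 7 of 12. Plet1 had 885 CPM in GelMA and 230 in AN-GelMA (-1.94, -2.13 to -1.76), and Cst6 4578 and 1322 CPM (-1.79, -1.87 to -1.72). Basal layer genes were higher in 11 of 13, with a median of 1.00, or -0.08 with thinned cells. Sebaceous lipid genes were lower in 15 of 23, cornified envelope genes in 9 of 17, and junction genes in 12 of 25. In GelMA, 5 of these 15, 6 of the 9 and 5 of the 12 stood at 2 or more times the fibroblast-type level.

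Genes named as lower in AN-GelMA were Nppb, Slc5a5, Akr1cl, Trpm6, Fads3, Prnd, Clec2e, Pinlyp, Slc6a19 and Epgn. All but Prnd were also lower in the other kept cells of AN-GelMA than in those of GelMA. Nppb, a natriuretic peptide precursor, had 15.1 CPM in the untreated, 88.0 in the GelMA and 0 in the AN-GelMA library, at least 38.5-fold lower in AN-GelMA than in GelMA with 3 UMIs taken for 0. Pinlyp had 28.9, 301 and 11.4 CPM, and in all other kept cells it had 249 CPM in GelMA and 5.39 in AN-GelMA. Genes named as higher were Fst, Dpysl3, Slc22a4, N4bp2l1, Adamts9, Jun, Skint7, Tmem191, Moxd1 and Clca3a1. Each of them was also higher in the other kept cells of AN-GelMA than in those of GelMA. Fst had 68.7 CPM in GelMA and 234 in AN-GelMA (1.77, 1.43 to 2.11), but its log2 ratio turned to -0.03 with thinned cells and to -0.34 in cells led by Krt1 and Krt10. Jun, a subunit of the AP-1 transcription factor, had 143 CPM in GelMA and 419 in AN-GelMA (1.55, 1.31 to 1.79). Adamts9, a proteoglycan-cleaving protease, had 173, 35.8 and 126 CPM, lowest in GelMA. In all other kept cells it had 59.7 CPM in GelMA and 122 in AN-GelMA.

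AN-GelMA and the untreated wound lay closest. This comparison addresses the whole treatment. Of 9242 genes, 565 (6.11%) were at least 1.5-fold higher and 676 (7.31%) lower, 13.4% in either direction, against 28.1% for GelMA over untreated. None of the 12 upper follicle markers passed 1.5-fold, with a median of -0.05. Krt17 had 1689 and 1675 CPM (-0.01, -0.11 to 0.09), and Plet1 295 and 230 CPM (-0.36, -0.61 to -0.10). Of 13 basal layer genes, 1 was lower, the bulge and basal keratin Krt15, at 171 and 97.6 CPM (-0.81, -1.17 to -0.44).

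Immediate early genes, which respond within minutes to growth factors or stress, were higher in 8 of 27 and lower in 0. Of the 8, 1 stood at 2 or more times the fibroblast-type level, but whether fibroblast-type cells make these genes themselves was not tested. Without cells holding other types' markers 3 of 24 were higher. The list was not particular to AN-GelMA. For GelMA over untreated 9 of 25 were higher and 1 lower, with a median of 0.46 against 0.40 for AN-GelMA over untreated. For AN-GelMA over GelMA 5 of 28 were higher and 8 lower, with a median of 0.02. Jun had 224 and 419 CPM (0.90, 0.64 to 1.16), a ratio of 1.87-fold, and in all other kept cells it had 183 and 263 CPM. Egr1, a zinc finger factor of the same group, had 39.9 and 82.4 CPM (1.04, 0.44 to 1.69), but its log2 ratio was 0.23 without cells holding other types' markers. Per1, a clock gene, had 281 and 442 CPM. Injury-induced genes were higher in 11 of 23 and lower in 1, yet in 2 of 17 without the cells holding other types' markers.

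Several lists passed 1.5-fold no more often than all genes in this comparison. Of 18 heat shock and unfolded protein genes, 0 were higher and 1 was lower, with a median of -0.06. The small heat shock protein Hspb1 had 191 CPM untreated, 326 with GelMA and 225 with AN-GelMA, a log2 ratio of 0.23 (-0.06 to 0.53) for AN-GelMA over untreated. Of 11 suprabasal genes 0 passed 1.5-fold, of 11 Notch genes 0, and of 27 protease control genes 1 was higher and 1 lower. Interferon-induced genes were higher more often than all genes, in 5 of 19, and lower in 2, none of them at 2 times the fibroblast-type level. Cells with at least 3 UMIs of Rsad2, Oasl2, Isg15, Bst2 and Irf7 were 6.51%, 3.60% and 7.27% of upper follicle cells. In fibroblast-type cells the shares were 19.6%, 13.2% and 20.7%. Whether fibroblast-type cells make these genes themselves was not tested. Their shares are therefore no measure of free RNA here, and the upper follicle shares are read neither as expression nor as background.

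Cell cycle genes were lower in 14 of 24 and higher in 0, with a median of -0.74, or 0.47 over 4 members with thinned cells. The topoisomerase Top2a had 117 CPM in the untreated and 52.6 in the AN-GelMA library (-1.15, -1.63 to -0.68), while the shares of cells with a UMI of it were 6.80% and 6.36%. None of the 14 reached 2 times the fibroblast-type level, which fibroblast-type cells may set by making these genes themselves. Among the other named genes, Cbr1, a carbonyl reductase, had 12.4 and 40.4 CPM and was higher in AN-GelMA. Penk had 201 and 117 CPM (-0.78, -1.11 to -0.44) and was lower, but its log2 ratio was 0.66 in cells led by Krt1 and Krt10. The cytokine Il36b was lower, with 67.5 and 32.8 CPM. Sprr1b had 60.6 and 111 CPM, and its log2 ratio was -0.08 without cells holding other types' markers.

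**Figure D4:**
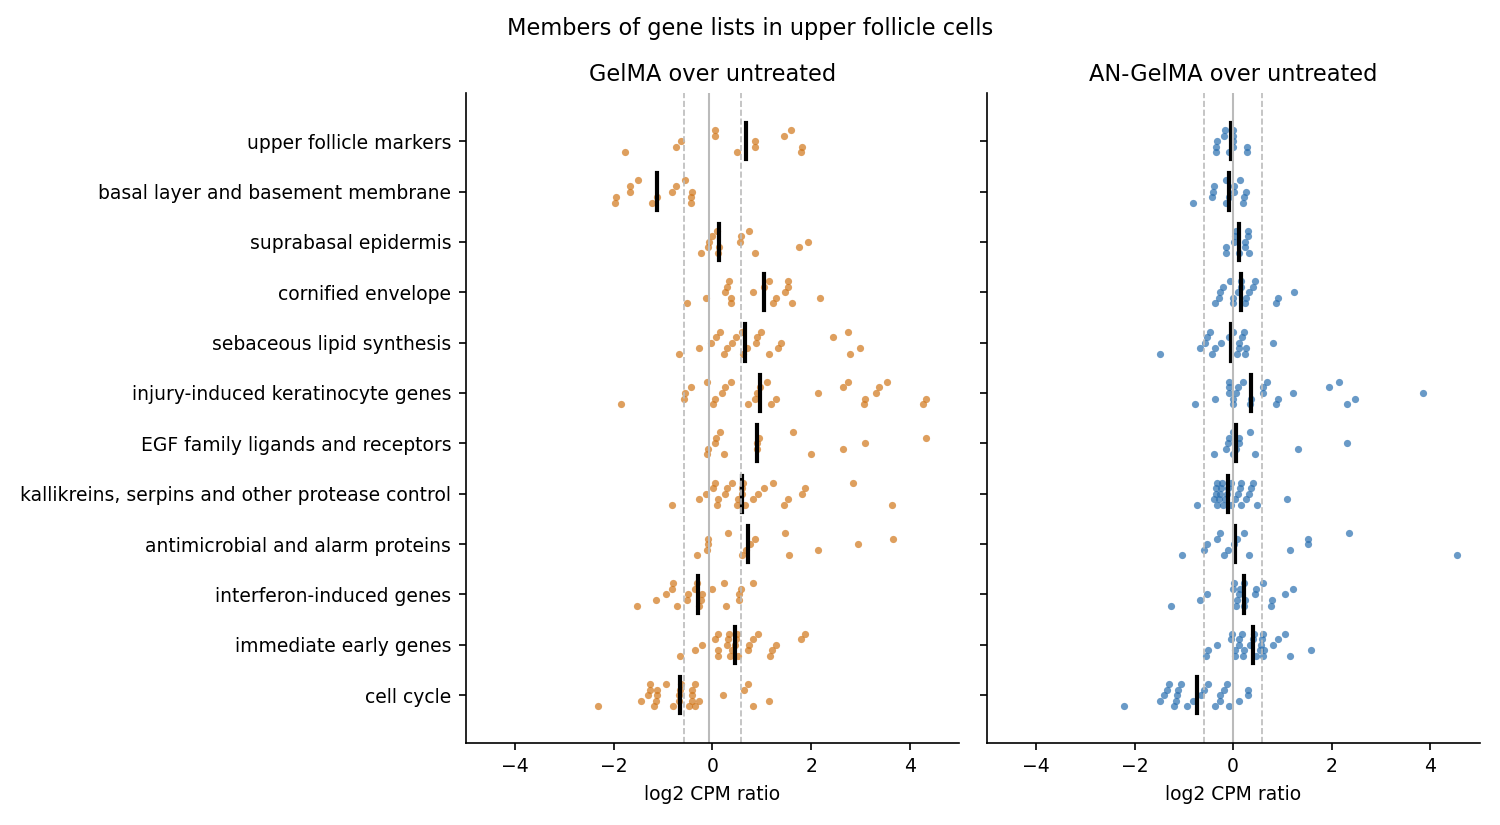
Log2 CPM ratio (horizontal axis) of each measured list member in upper follicle cells, for GelMA over untreated and for AN-GelMA over untreated, with black bars at list medians, a grey line at the median of all genes and dashed lines at 1.5-fold. Cornified envelope, injury and EGF lists lie to the right of the grey line in GelMA, while the upper follicle markers lie within the dashed lines in AN-GelMA.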

How the data were processed

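Single-cell RNA was measured in 3 libraries, 1 per group. The deposited matrices hold raw UMI counts per gene and cell, which per the file headers come from Cell Ranger 10.0.0. The submitters' processing notes name the builds GRCm39 and mm39. There were 19070 features, and the settings that called cells are not stated in the labels. The cells, gene lists and alternatives were chosen with earlier results of these data known, and the small sets of cells after their values were seen. No doublet caller was run; cells with 3 or more UMIs of other types' markers were left out as an alternative. The summed upper follicle cells held 726383 (untreated), 1397242 (GelMA) and 1311345 (AN-GelMA) UMIs, and 1 UMI equals 1.38, 0.716 and 0.763 CPM.

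Libraries were compared by log2 CPM ratios with exact intervals (SciPy 1.17.1), for genes with 20 UMIs over both libraries; 0 counts were taken as 3 UMIs. Named genes had the interval bound farthest from no change, at least 50 UMIs, and a level in the higher library at or above that of its other cells. Populations were compared with edgeR 4.0.16 (TMM, low-count filter, library as block), where named genes were the 15 each way with the largest smallest difference over 3 comparators and at least 50 CPM. On simulated sums edgeR recovered 71% of 2-fold and 93% of 4-fold changes. DESeq2 1.42.0, other limits on UMIs and genes, thinned cells, TMM scaling, leaving out each library, and subsets of cells were tried as alternatives. List symbols without a probe were not analysed here.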

Additional observations from a re-analysis of the deposited data

How the results depend on the processing

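No paired analysis was possible because no group holds more than 1 library, so between groups no result has a replicate check, and intervals cover counting error only. The shares of kept cells (untreated, then GelMA, then AN-GelMA) were 6.99%, 5.95% and 8.60% with at least 2 UMIs of Krt79 and Gata6, 3.92%, 4.22% and 4.69% with at least 5, and 4.42%, 3.80% and 5.6% without cells holding other types' markers. Thinned to 1000 UMIs they were 6.38% and 5.90% in the untreated and GelMA libraries. The GelMA share was 5.58% with at least 500 genes per cell and 4.05% without the cells chosen by Prnd, Epgn, Fads3, Pinlyp and Slc5a5. It was 6.95% over cells with at most 2 UMIs of Krt35 and Krt71 and at most 1 of Tbx1 and Krt75. Over the 4 keratinocyte populations the shares were 28.3%, 28.1% and 31.2%. The AN-GelMA share of cells led by Krt1 and Krt10 was 42.9% with the line drawn at 2 times.

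With cells thinned to 1000 UMIs the median log2 ratio of the basal layer was -0.084 for AN-GelMA over GelMA and 0.019 for GelMA over untreated, that of sebaceous lipid genes 0.22 for GelMA over untreated, and that of cell cycle genes 0.44 for GelMA and 0.47 for AN-GelMA over untreated. Thinning also gave Fst -0.030 for AN-GelMA over GelMA and 0.39 for GelMA over untreated, and Krt16 -0.22 for AN-GelMA over untreated. Without the 5% deepest cells the basal layer median was 0.51 for AN-GelMA over GelMA, and the cell cycle median 0.0094 for GelMA over untreated. With at least 5 UMIs of Krt79 and Gata6, GelMA over untreated gave 0.13 for bulge and lower follicle and -1.23 for cell cycle genes. In cells led by Krt1 and Krt10 those medians were 0.16 and 0.60, the cell cycle median of AN-GelMA over untreated was -0.18, Fst was -0.34 for AN-GelMA over GelMA, Penk was 0.66 for AN-GelMA over untreated, and 854 genes were lower in GelMA than untreated. In cells not so led the cornified envelope median was 1.5 for GelMA over untreated. Without cells holding other types' markers Sprr1b was -0.083 for AN-GelMA over untreated. With at least 100 UMIs over both libraries 587 genes were higher and 604 lower for AN-GelMA over GelMA, 539 and 485 for GelMA over untreated, and 90 and 68 for AN-GelMA over untreated. With at least 1 UMI 2335 were lower for AN-GelMA over GelMA, 2050 higher for GelMA over untreated, and 1088 higher and 1347 lower for AN-GelMA over untreated. The cause was not tested for any of these shifts.

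Leaving out each library in turn, 444 to 620 genes were higher and 465 to 780 lower than in suprabasal-type cells, 844 to 1322 lower than in basal-type cells, and 126 to 185 higher and 20 to 41 lower than in all 3 comparators. The lowest counts came without the untreated library (444, 465 and 20) and without AN-GelMA (844 and 126). Without the library term edgeR called 435 genes higher than suprabasal-type and 24 lower than all 3, fewer than with it. Of the values of named genes against single comparators under these settings, 882 kept the call, 18 lost it (Rassf5, Gemin7, Fabp5, Hif1a, Itpk1 and Zfp652) and 0 reversed.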
